A study of Homo sapiens with 20 samples.

Results

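The genes described here are the hypoxia-inducible factors and a set of their target genes: HIF1A, EPAS1, ARNT, EGLN3, PDK1, BNIP3, VEGFA, ADM, NDRG1 and CA9. They were taken by symbol from read counts per gene, and all 10 were found among 50775 features; all 10 are also among the 16698 genes that passed a filter on low counts, CA9 only through the untreated 94T778 libraries. RNA sequencing counts came from 5 established human cancer cell lines, each with a torkinib group and an untreated group of 2 libraries, 20 libraries in all. Torkinib (PP242) is an ATP-competitive inhibitor of the kinase MTOR. The torkinib groups had 72 h of drug: 94T778, a well differentiated liposarcoma line, at 10 µM; the melanoma lines A375 and SKMEL28 and the breast cancer line AU565 at 4 µM; and the breast cancer line SKBR3 at 0.8 µM. The reference for each was the same line without drug, for which neither a vehicle nor a time is given. Per the labels, each dose was chosen to stop the cell cycle while keeping cells viable, so lines can be compared without a difference in dose only among A375, SKMEL28 and AU565. The 5 lines also grew in different media, and an oxygen level is not given in the sources used here. The series asks how MTOR inhibition changes gene expression, mainly of DNA repair genes; the comparisons below are torkinib against untreated in each line.

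Cells sense oxygen through prolyl hydroxylases, which mark the HIF alpha subunits for destruction by the VHL ubiquitin ligase when oxygen is present. When oxygen is low, the alpha subunit (HIF1A or EPAS1, also called HIF-2 alpha) is stable, pairs with ARNT and binds short DNA elements with the core letters ACGTG or GCGTG beside target genes. The targets shift metabolism away from respiration, call in blood vessels and balance acid. MTOR complex 1 is known to raise HIF1A at the level of its mRNA and its translation, and the protein itself was not measured here.

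HIF binds these core letters beside its target genes, so 4 member promoters that hold them are shown. Windows from the RefSeq promoter table (GRCh38.p14) were used for 8 of the 10 members, 10 windows in all, with none for VEGFA and NDRG1. The 250 bases before each start site were searched for ACGTG and GCGTG on both strands, where overlapping matches count separately. A match stood in 6 of the 10 windows and in 6 of the 8 members: CA9, PDK1, BNIP3, ADM, HIF1A and EPAS1. It was also in 43.2% of all 35116 such windows in the table, so a match sets no member apart, and no match in the windows of ARNT and EGLN3 says only that these letters are not there. In the lines below, capitals mark each match, and each sequence reads 5′ to 3′ on the gene's strand. CA9 is at chr9:35673880-35673927, plus strand, with the match 18 bases before the start site. PDK1 is at chr2:172556043-172556089, plus strand, with matches 17 and 8 bases before the start of its window 2, while its window 1 had no match. BNIP3 is at chr10:131982023-131982087, minus strand, and has 6 matches in its window. ADM is at chr11:10304942-10305006, plus strand, with the match 101 bases before the start.
CA9: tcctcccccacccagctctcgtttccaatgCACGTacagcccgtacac
PDK1: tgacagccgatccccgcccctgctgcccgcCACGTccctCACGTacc
BNIP3: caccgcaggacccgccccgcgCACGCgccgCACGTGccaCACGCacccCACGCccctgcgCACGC
ADM: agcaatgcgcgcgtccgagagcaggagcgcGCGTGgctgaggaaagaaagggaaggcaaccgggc

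Counted reads per library ran between 4040023 and 9737903. Marker genes matched the labels of 4 lines: a list of 5 genes of the 12q amplicon summed to 9502 up to 11550.2 CPM (counts scaled by the normalised library size) in 94T778 libraries and to at most 850.3 CPM elsewhere, a breast list of 6 genes to at least 11620.2 CPM in SKBR3 and AU565 and at most 532 CPM elsewhere, and a melanocyte list of 5 genes to at least 7068 CPM in SKMEL28. A375 had 22.3 to 38.8 CPM of the melanocyte list, so these markers do not identify it. The 2 untreated SKBR3 libraries stood apart from each other, with a chi-square per gene of 11.1 against 1.34 to 3.15 in the other groups, and replicate 1 took 7.63% and replicate 2 took 4.44% of counts from mitochondrially encoded genes. For 21 genes that 94T778 expressed and SKMEL28, SKBR3 and AU565 lacked, the median level relative to untreated 94T778 was 0.322% and 0% in the torkinib A375 libraries, against 2.96% in untreated A375 replicate 1 and 0.350% in replicate 2. Nothing in the labels says that replicates were separate cultures, so each p-value is set by how far these libraries vary, which can be technical variation. In such bulk RNA, a change in the mix of cells and a change in RNA per cell cannot be told apart.

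The family did not move as a block. PDK1 was lower with torkinib in all 5 lines and HIF1A and EGLN3 were lower in 4 each, while VEGFA, ADM, BNIP3, NDRG1, EPAS1 and HIF1A were each called higher in 1 or 2 lines and lower in 2 to 4 others. A call means an adjusted p under 0.05 in edgeR's quasi-likelihood test. In 94T778, 6 members were lower and 1 was higher, where 47.5% of all genes tested were called, 23.8% lower and 23.8% higher; 1 of the 6 is CA9, which passed the count filter only through the untreated libraries of that line and so had to differ there, which leaves 5. A375 had 5 lower and 1 higher, where 42.8% of all genes were called, 24.3% lower and 18.5% higher. There 1 of the 5 was CA9, at 0 counts with torkinib against 7 untreated. That call was lost with DESeq2 and with no filter on low counts. SKMEL28 had 7 lower and 1 higher, where 44.0% were called, 23.7% lower and 20.4% higher. SKBR3 had 4 lower and 4 higher, where 51.3% were called, 26.7% lower and 24.6% higher. AU565 had 4 lower and 1 higher, where 55.6% were called, 28.6% lower and 26.9% higher. The median log2 fold change of the members with more than 5 counts in a group (9 in each line, 8 in A375) was -1.01 for 94T778 beside 0.02 over all genes, -0.61 for A375 beside -0.02, -1.15 for SKMEL28 beside -0.01, -0.09 for SKBR3 beside 0.02, and -0.26 for AU565 beside 0.03. In A375 43.3% of all called genes were higher with TMM scaling and 53.4% with upper quartile scaling. Being called higher in some lines and lower in others held for 6 of the 10 members and for 24.0% of all genes; being called lower in all 5 lines held for 1 member and for 4.62% of all genes, and a call in 1 direction in all 5 for 6.88%. Both torkinib libraries lay outside the range of the untreated pair for 74.4% of all genes in AU565, 70.8% in 94T778, 69.2% in SKMEL28, 69.1% in A375 and 67.3% in SKBR3, so non-overlap of 2 against 2 libraries is common here.

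**Figure D1:**
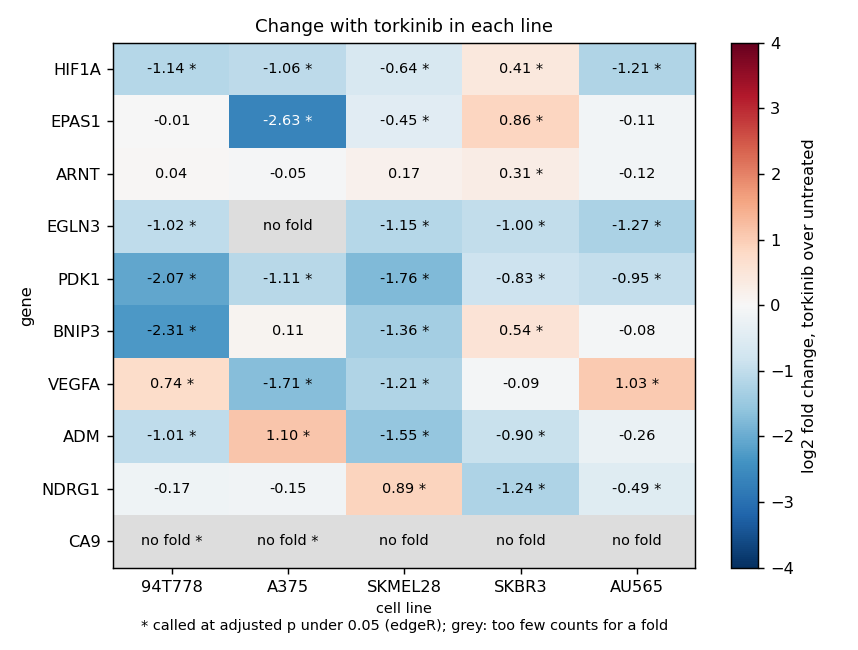
Log2 fold change of each member (rows), torkinib over untreated, in each cell line (columns), with red for higher and blue for lower; a star marks an edgeR adjusted p under 0.05 and grey a pair of groups with too few counts for a fold. The PDK1 row is blue throughout, between -2.07 in 94T778 and -0.83 in SKBR3, while the VEGFA row runs between -1.71 in A375 and 1.03 in AU565.

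HIF1A encodes the alpha subunit that most cell types use in the acute response to low oxygen. Its mRNA fell in 4 lines and rose in SKBR3. In 94T778 it stood at 355 and 351 CPM with torkinib, against 781 and 774 CPM untreated. In A375 it stood at 187 and 194 CPM with torkinib, against 392 and 401 CPM untreated. In AU565 it had 149.5 and 150.2 CPM with torkinib, against 346 and 345 CPM untreated. In these 3 lines both torkinib libraries lay far below both untreated ones. The log2 fold changes were -1.14 in 94T778 (SE 0.08, edgeR adjusted p = 5.81e-15), -1.06 in A375 (SE 0.08, adjusted p = 1.80e-13) and -1.21 in AU565 (SE 0.08, adjusted p = 3.71e-15). SKMEL28 had a smaller fall of 0.64 (SE 0.08, adjusted p = 1.18e-08), at 371 and 354 CPM with torkinib against 561 and 566 CPM untreated. SKBR3, which had the lowest untreated level, had 109.7 and 119 CPM with torkinib against 74.5 and 96.5 CPM untreated, a rise of 0.41 (SE 0.09, adjusted p = 2.46e-04). The rise in SKBR3 was 0.23 without untreated replicate 1 (adjusted p = 0.0305) and 0.62 without untreated replicate 2. The change differed between the lines (edgeR joint test of 4 differences, adjusted p = 1.22e-13).

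EPAS1 encodes HIF-2 alpha, which has a narrower range of tissues and acts in longer responses. It fell in A375 and SKMEL28, rose in SKBR3 and was not called in 94T778 and AU565. In SKBR3 it stood at 501 and 519.6 CPM with torkinib, against 250.4 and 309 CPM untreated, a rise of 0.86 on the log2 scale (SE 0.08, edgeR adjusted p = 1.24e-11). Both torkinib libraries were above both untreated ones. EPAS1 is abundant in endothelial cells, and the 4 measured genes of an endothelial list of 5 summed to 163 and 169.9 CPM in the torkinib libraries of SKBR3 against 18.4 and 22.6 CPM untreated; CDH5 alone gave 148 and 156 CPM with torkinib against 14.9 and 20.2 CPM untreated (these CPM of CDH5 without normalisation factors), and VWF, TEK and ERG were at most 1.84 CPM in SKBR3 libraries. In AU565, where EPAS1 was not called, the list summed to 82.4 and 87.6 CPM with torkinib against 39.8 and 41.9 CPM untreated; CDH5 was higher there, while ERG had 2.44 and 4.57 CPM with torkinib against 11.3 and 9.97 CPM untreated, and VWF 1.50 and 0.856 CPM with torkinib against 3.39 and 2.53 CPM untreated. The part of these genes in the EPAS1 result was not tested.

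In A375, EPAS1 had 8 and 7 counts with torkinib (1.22 and 1.48 CPM), against 72 and 60 counts untreated (9.50 and 7.16 CPM). The log2 fold change was -2.63 (SE 0.31, edgeR adjusted p = 7.35e-09), the largest fall of any member with a fold in any line. The untreated A375 libraries held EPAS1 at 5.38% and 4.08% of its untreated 94T778 level, and the torkinib libraries at 0.720% and 0.881%. For the 21 other genes of 94T778 the median was 2.96% and 0.350% untreated, and 0.322% and 0% with torkinib. Whether reads of 94T778 origin add to the EPAS1 result was not tested. Without untreated replicate 1 the change was -2.42. In SKMEL28 EPAS1 had 28.8 and 28.04 CPM with torkinib against 39.5 and 38.6 CPM untreated, a fall of 0.45 (SE 0.11, adjusted p = 1.31e-03). In 94T778 it had 197 and 202 CPM with torkinib against 204 and 199 CPM untreated, a change of -0.01 (95% interval -0.18 to 0.16). In AU565 it had 418 and 420.3 CPM with torkinib against 448 and 455 CPM untreated, a change of -0.11 (95% interval -0.26 to 0.05). Tested directly, the change in AU565 was higher than in SKMEL28 by 0.35 (edgeR adjusted p = 0.0494). That call was lost with DESeq2, with limma-voom and with no filter on low counts. The change in 94T778, at another dose, was not tested against that in SKMEL28 alone.

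The ratio of HIF1A to EPAS1 counts in a library needs no scaling for depth; it is not corrected for transcript length, so it is read only between libraries. In 94T778 it was 1.80 and 1.74 with torkinib, against 3.84 and 3.90 untreated. In AU565 it was 0.358 and 0.357 with torkinib, against 0.773 and 0.759 untreated. In SKBR3 it was 0.219 and 0.229 with torkinib, against 0.297 and 0.312 untreated. SKMEL28 had 12.9 and 12.6 with torkinib against 14.2 and 14.7 untreated. In these 4 lines both torkinib libraries had a lower ratio than both untreated ones. A375 went the other way, at 154 and 131 with torkinib against 41.3 and 56.03 untreated, on the few EPAS1 counts given above.

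ARNT encodes the beta subunit shared by both factors and is not itself controlled by oxygen. Its level was the most even of the family, between 37.8 and 66.1 CPM in torkinib libraries and between 37.00 and 68.3 CPM in untreated libraries of the 5 lines. It was called in SKBR3 alone, with 60.01 and 61.4 CPM with torkinib against 43.6 and 53.8 CPM untreated, a rise of 0.31 (SE 0.10, edgeR adjusted p = 0.0108). That call was lost without untreated replicate 1 (0.16, adjusted p = 0.246) and without torkinib replicate 2 (0.28, adjusted p = 0.0896), and the rise was 0.48 without untreated replicate 2. In the other 4 lines the log2 fold change lay between -0.12 in AU565 and 0.17 in SKMEL28, and the 95% intervals lay within -0.31 and 0.38.

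EGLN3 encodes PHD3, the prolyl hydroxylase whose own gene is a HIF target and which feeds back on the alpha subunits. It fell in the 4 lines that express it, by about the same size. AU565, with the highest level, had 23.2 and 22.9 CPM with torkinib against 57.4 and 53.1 CPM untreated, a fall of 1.27 on the log2 scale (SE 0.13, edgeR adjusted p = 6.28e-11). SKBR3 had 8.74 and 8.46 CPM with torkinib against 15.6 and 18.5 CPM untreated, a fall of 1.00 (SE 0.19, adjusted p = 2.84e-05). SKMEL28 had 3.82 and 5.01 CPM with torkinib against 9.78 and 9.68 CPM untreated, a fall of 1.15 (SE 0.22, adjusted p = 4.57e-05). No torkinib library reached its line's untreated pair in these 3 lines. In 94T778 it had 20 and 17 counts with torkinib against 35 and 21 counts untreated, a fall of 1.02 (SE 0.31, adjusted p = 6.39e-03). That call was lost without untreated replicate 1 (-0.60, adjusted p = 0.257) and without torkinib replicate 2 (-0.90, adjusted p = 0.0533). A375 had 1 count in its torkinib libraries and 5 in its untreated ones, near the floor of 3 counts, so no fold is given. Over the 4 other lines the average fall was 1.11 (SE 0.11, adjusted p = 6.73e-11), and a joint test called no difference in the fall between them (adjusted p = 0.693), a comparison chosen after the low A375 counts were seen.

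PDK1, a mitochondrial kinase that inhibits pyruvate dehydrogenase and so the conversion of pyruvate to acetyl-CoA, was the only member called lower in all 5 lines. In 94T778 it had 12.1 and 9.83 CPM with torkinib against 47.5 and 45.1 CPM untreated, a fall of 2.07 on the log2 scale (SE 0.12, edgeR adjusted p = 1.50e-16). In SKMEL28, which held the most, it had 46.7 and 42.7 CPM with torkinib against 153 and 151 CPM untreated, a fall of 1.76 (SE 0.09, adjusted p = 4.21e-19). In A375 it had 12.6 and 12.2 CPM with torkinib against 27.3 and 26.7 CPM untreated, a fall of 1.11 (SE 0.14, adjusted p = 1.74e-08). The groups did not overlap in any line. In AU565 it had 11.03 and 9.52 CPM with torkinib against 19.3 and 20.3 CPM untreated, a fall of 0.95 (SE 0.15, adjusted p = 8.66e-07). In SKBR3 it had 8.15 and 8.46 CPM with torkinib against 15.1 and 14.5 CPM untreated, a fall of 0.83 (SE 0.17, adjusted p = 1.11e-04). The size of the fall differed between lines (joint test, adjusted p = 8.16e-07).

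BNIP3 encodes a mitochondrial outer membrane protein that recruits the autophagy machinery to mitochondria. It fell in 94T778 and SKMEL28, the lines where it was highest, rose in SKBR3 and was not called in A375 and AU565. In 94T778 it had 39.6 and 36.2 CPM with torkinib against 194 and 181 CPM untreated, a fall of 2.31 (SE 0.09, edgeR adjusted p = 1.27e-21). In SKMEL28 it had 32.00 and 33.1 CPM with torkinib against 78.99 and 86.9 CPM untreated, a fall of 1.36 (SE 0.10, adjusted p = 3.63e-14). In SKBR3 it had 47.9 and 49.9 CPM with torkinib against 29.97 and 36.7 CPM untreated, a rise of 0.54 (SE 0.11, adjusted p = 9.21e-05). With torkinib the 5 line means lay within 1.80-fold of each other, against 5.63-fold untreated. A375 had 36.4 and 39.8 CPM with torkinib against 36.1 and 34.1 CPM untreated, a change of 0.11 (95% interval -0.12 to 0.34). AU565 had 56.7 and 60.2 CPM with torkinib against 65.1 and 58.05 CPM untreated, where the groups overlapped, a change of -0.08 (95% interval -0.27 to 0.12).

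**Figure D2:**
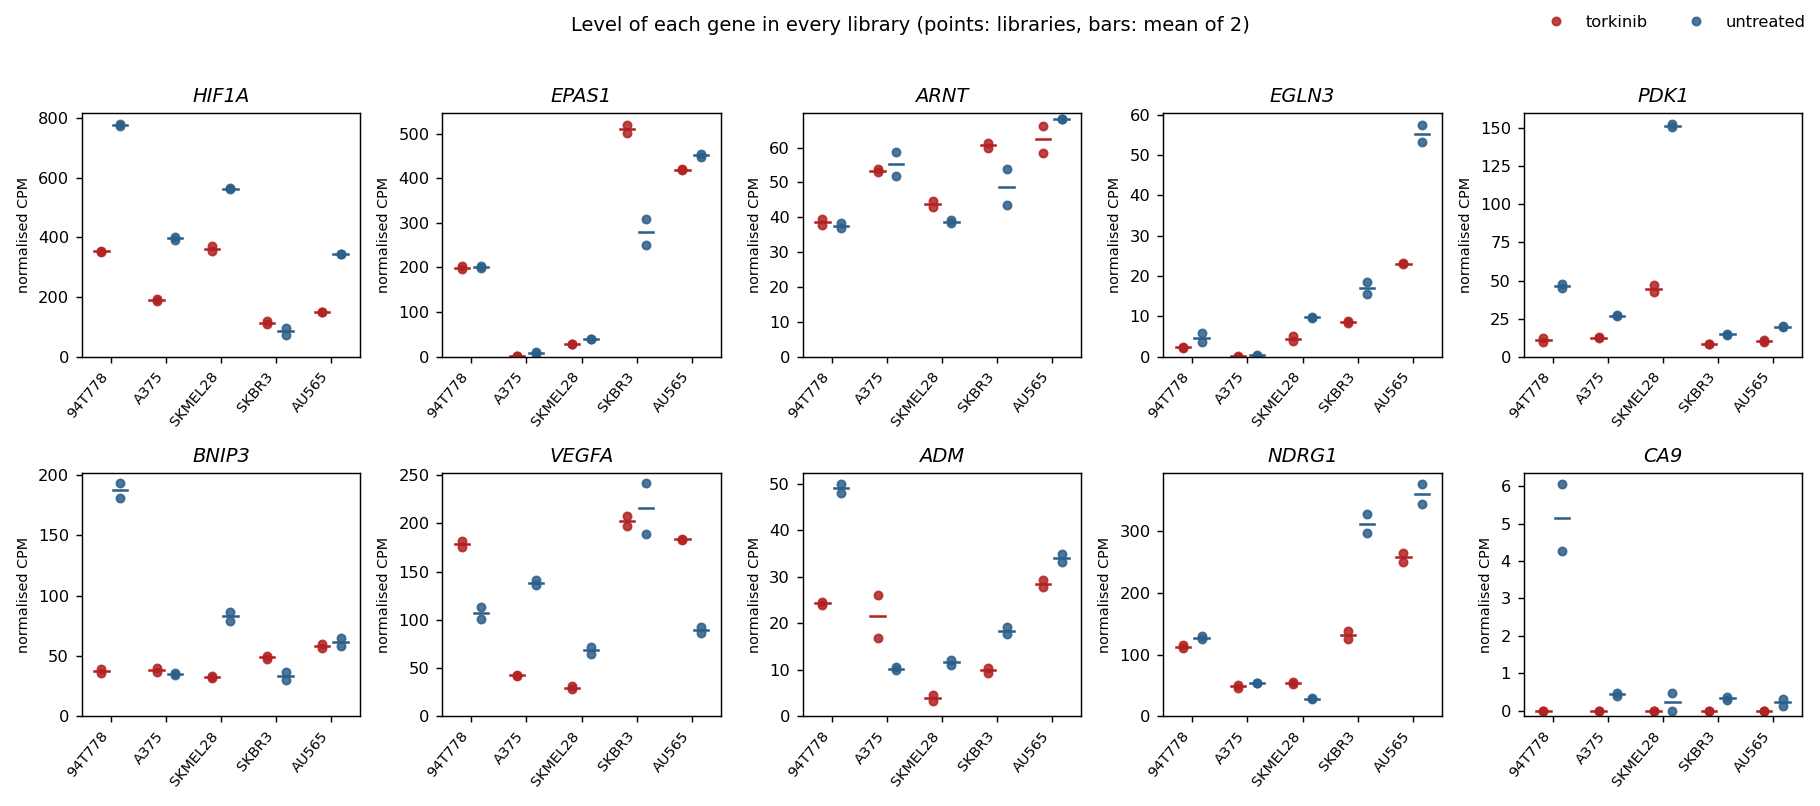
Normalised CPM (vertical axes, linear) of each member in all 20 libraries, by cell line, with torkinib libraries in red to the left of untreated ones in blue; points are libraries and bars the mean of 2. HIF1A is lower with torkinib in every line but SKBR3, and CA9 has counts in untreated libraries only.

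VEGFA encodes the main growth factor for blood vessels, and its mRNA went in opposite directions. It rose in AU565, with 183 and 184 CPM with torkinib against 92.6 and 86.3 CPM untreated, by 1.03 on the log2 scale (SE 0.09, edgeR adjusted p = 3.64e-12). It rose in 94T778, with 182 and 176 CPM with torkinib against 100.5 and 113 CPM untreated, by 0.74 (SE 0.09, adjusted p = 1.46e-08). In both lines HIF1A fell in the same libraries. It fell in A375, with 41.9 and 42.8 CPM with torkinib against 136 and 141 CPM untreated, by 1.71 (SE 0.10, adjusted p = 3.51e-16). It fell in SKMEL28, with 28.2 and 30.9 CPM with torkinib against 71.95 and 64.9 CPM untreated, by 1.21 (SE 0.11, adjusted p = 2.15e-11). The groups did not overlap in any of these 4 lines. In SKBR3, where it was highest, the groups overlapped, at 207 and 197 CPM with torkinib against 242 and 189 CPM untreated. The change there was -0.09 (SE 0.09, edgeR adjusted p = 0.423). It was 0.08 without untreated replicate 1 and -0.26 without untreated replicate 2, so its sign and size depended on which untreated library was kept.

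ADM encodes adrenomedullin, a peptide that widens blood vessels. It rose in A375, fell in 94T778, SKMEL28 and SKBR3, and missed the threshold in AU565. In A375 it had 26.2 and 16.9 CPM with torkinib against 9.89 and 10.6 CPM untreated, a rise of 1.10 (SE 0.17, edgeR adjusted p = 9.19e-07). The torkinib libraries of A375 differed from each other, and the rise was 0.71 without torkinib replicate 1 (adjusted p = 0.00607). In SKMEL28 it had 4.48 and 3.25 CPM with torkinib against 12.1 and 11.1 CPM untreated, a fall of 1.55 (SE 0.22, adjusted p = 3.07e-07). In 94T778 it had 24.6 and 24.1 CPM with torkinib against 50.1 and 48.1 CPM untreated, a fall of 1.01 (SE 0.12, adjusted p = 1.47e-08). In both lines the torkinib libraries lay below the untreated ones. In SKBR3 it had 10.3 and 9.41 CPM with torkinib against 19.1 and 17.7 CPM untreated, a fall of 0.90 (SE 0.18, adjusted p = 7.66e-05). In AU565 it had 29.3 and 27.8 CPM with torkinib against 33.2 and 34.99 CPM untreated, a change of -0.26 (SE 0.13, adjusted p = 0.0891).

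NDRG1 encodes a stress-induced cytosolic protein that MTOR complex 2 signals to through the kinase SGK1, and its gene is a HIF target. It rose in SKMEL28, with 54.9 and 52.6 CPM with torkinib against 27.4 and 30.1 CPM untreated, by 0.89 (SE 0.11, edgeR adjusted p = 7.38e-09). It fell in SKBR3, with 138 and 126 CPM with torkinib against 296 and 327 CPM untreated, by 1.24 (SE 0.08, adjusted p = 1.33e-15). It fell in AU565, with 250.3 and 265 CPM with torkinib against 377 and 344 CPM untreated, by 0.49 (SE 0.08, adjusted p = 1.04e-06). So the breast lines, which held the most NDRG1, had lower levels with torkinib, and SKMEL28, which held the least untreated, had a higher one. In 94T778 it had 115 and 111 CPM with torkinib against 129.7 and 125 CPM untreated, a change of -0.17 (SE 0.08, adjusted p = 0.0937). In A375 it had 51.5 and 45.3 CPM with torkinib against 53.8 and 54.4 CPM untreated, a change of -0.15 (SE 0.10, adjusted p = 0.233).

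CA9 encodes a membrane carbonic anhydrase that is among the most oxygen-dependent HIF targets. It had no count in any of the 10 torkinib libraries. The untreated 94T778 libraries had 25 and 36 counts (4.27 and 6.05 CPM), and the other untreated libraries had 0 to 4 counts. Against a floor of 3 counts over the torkinib group, CA9 was at least 25.3-fold lower with torkinib in 94T778. This bound covers counting error of the torkinib group only and takes the untreated counts as exact. It is given as a description with no test, since the untreated 94T778 libraries are what brought CA9 past the count filter. In A375, with 0 counts against 7, the same ratio was 1.58-fold, and the counting error of 7 counts is not in it. The A375 call (edgeR adjusted p = 0.0405) was lost with DESeq2 (adjusted p = 0.0755) and with no filter on low counts (edgeR adjusted p = 0.0507). That call was also lost without any 1 of the 4 A375 libraries. In SKMEL28, SKBR3 and AU565, with 0 counts against 4 in each, the adjusted p was 0.0575, 0.0777 and 0.103, and a difference was not detectable at this depth.

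AU565, SKMEL28 and A375 had the same dose and can be compared with each other. The change of VEGFA was higher in AU565 than in A375 by 2.74 on the log2 scale (SE 0.14, edgeR adjusted p = 3.77e-18), the largest of the members' differences among these lines, and higher than in SKMEL28 by 2.24 (SE 0.14, adjusted p = 4.83e-15). Of the 9 members with an estimate, 4 differed between AU565 and A375, 7 between AU565 and SKMEL28 and 7 between SKMEL28 and A375, where 43.2%, 40.5% and 31.6% of all genes differed. Between the melanoma lines, the change of ADM was lower in SKMEL28 than in A375 by 2.65 (SE 0.28, adjusted p = 1.30e-09), that of BNIP3 was lower by 1.47 (SE 0.15, adjusted p = 9.46e-10), and that of NDRG1 was higher by 1.05 (SE 0.15, adjusted p = 6.02e-07). HIF1A fell less in SKMEL28 than in A375, by 0.42 (SE 0.11, adjusted p = 0.0033). HIF1A and PDK1 showed no called difference between AU565 and A375: the difference was -0.15 for HIF1A (95% interval -0.38 to 0.09) and 0.16 for PDK1 (95% interval -0.26 to 0.59). The difference of NDRG1 between AU565 and A375, -0.33, lost its call with DESeq2 (adjusted p = 0.0557), without untreated replicate 1 (0.086) or 2 (0.0716) or torkinib replicate 1 (0.277) of A375, and without untreated replicate 1 (0.145) or torkinib replicate 1 (0.116) of AU565, all given as edgeR adjusted p after the first.

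**Figure D3:**
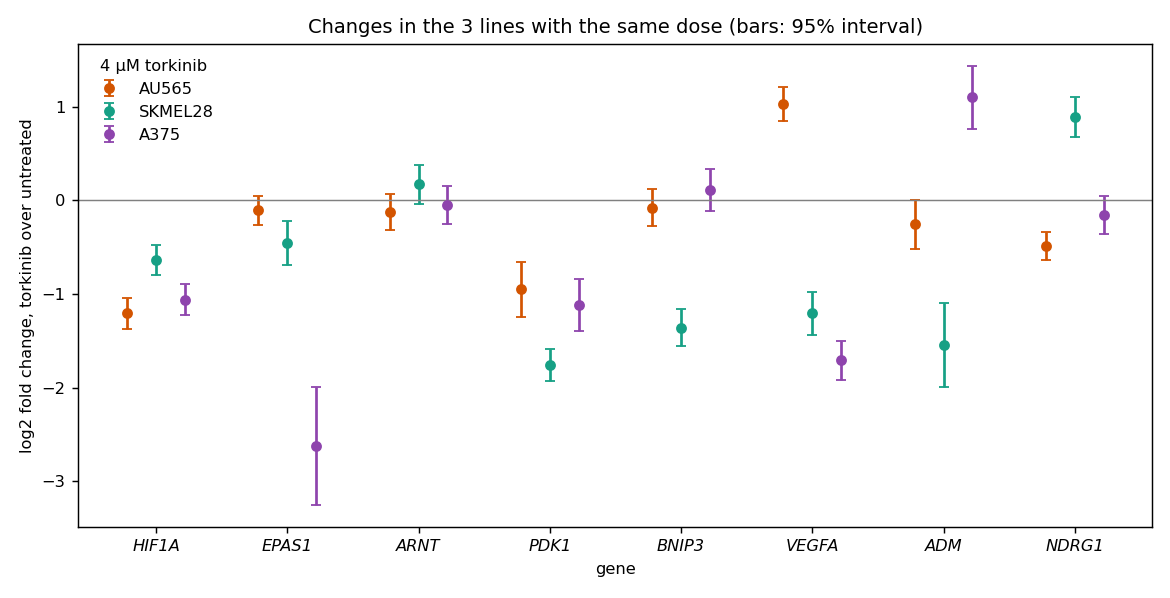
Log2 fold change, torkinib over untreated (vertical axis), of 8 members in the 3 lines with 4 µM torkinib; points are edgeR estimates and bars their 95% intervals, and EGLN3 and CA9 are left out for their few counts in A375. VEGFA lies above 0 in AU565 and below 0 in both melanoma lines, while HIF1A and PDK1 lie below 0 in all 3.

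Over all 5 lines, a joint test found that the change of 8 of 9 members differed between lines, where 77.1% of all genes with counts in every group differed; EGLN3 was the exception (adjusted p = 0.822). ARNT, at an adjusted p of 0.0423, lost its call without 1 library in 15 of 20 cases (adjusted p of 0.00273 to 0.132) and with upper quartile factors, DESeq2 and limma-voom. An average over lines hides the opposite calls of VEGFA, ADM, BNIP3, NDRG1, EPAS1 and HIF1A. On that average 8 of 9 members were called, all lower, where 68.5% of all genes were called and 34.0% called lower; ARNT, at 0.07 (SE 0.05, adjusted p = 0.21), was not. PDK1 had an average of -1.35 (SE 0.06), HIF1A of -0.73 (SE 0.04) and BNIP3 of -0.62 (SE 0.05). The averages of VEGFA (-0.25, SE 0.04) and EPAS1 (-0.47, SE 0.07) changed sign without A375. Over the 4 other lines they were 0.12 (edgeR adjusted p = 0.0306) and 0.08 (adjusted p = 0.143), and that of ADM was -0.93 in place of -0.52. No other line was left out in this way, and VEGFA also fell in SKMEL28 (-1.21).

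Before treatment the joint test of edgeR called a difference between lines for all 10 members and for 96.3% of all genes; CA9 had to differ, since untreated 94T778 brought it past the filter. HIF1A was highest in untreated 94T778, then SKMEL28, A375, AU565 and SKBR3, each called different from the next, with 777.7 ± 4.83 CPM in 94T778 and 85.5 ± 15.6 CPM in SKBR3 (SD, n = 2 each). EPAS1 had another order, with AU565 first at 451 ± 5.11 CPM, then SKBR3, 94T778, SKMEL28 and A375 at 8.33 ± 1.65 CPM (SD, n = 2 each). EGLN3 and NDRG1 were highest in AU565 and SKBR3, as EPAS1 was, and BNIP3, ADM and CA9 were highest in 94T778, as HIF1A was. These matches are of the top lines only. After 94T778, ADM ran AU565, SKBR3, SKMEL28 and A375, while BNIP3 ran SKMEL28, AU565, A375 and SKBR3. PDK1 was highest in SKMEL28, 10.2-fold above SKBR3. VEGFA spanned 3.15-fold between SKBR3 at the top and SKMEL28. Some neighbours in these orders did not differ beyond their spread: ADM in SKMEL28 and A375 (adjusted p = 0.436), BNIP3 in A375 and SKBR3 (adjusted p = 0.609), ARNT in A375 and SKBR3 (adjusted p = 0.106) and in SKMEL28 and 94T778 (adjusted p = 0.757), and CA9 among all lines but 94T778 (adjusted p of 0.703 to 0.933). No level is compared between genes, since these are not per length.

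Other genes of the pathway were taken from 4 lists: regulators of HIF, further HIF targets, the VEGF and adrenomedullin system, and paralogs of the members. Of 98 genes listed 90 were tested and 81 had counts in every group. On the average of the lines 51 of the 81 were called lower and 20 higher, with a median log2 fold change of -0.52, where 34.0% and 34.5% of all genes were called lower and higher and the median was 0.01. Among the further targets, 30 of 44 were lower and 9 higher (median -0.88). Of the 48 tested targets, 29 (60.4%) were lower and 10 (20.8%) higher in 94T778, where 23.8% of all genes were called each way. In SKMEL28 30 (62.5%) were lower and 7 (14.6%) higher, beside 23.7% and 20.4% of all genes. In A375 22 (45.8%) were lower and 10 (20.8%) higher, beside 24.3% and 18.5%. The shares were nearer to those of all genes in the breast lines: in AU565 18 (37.5%) were lower and 13 (27.1%) higher, beside 28.6% and 26.9%, and in SKBR3 17 (35.4%) were lower and 14 (29.2%) higher, beside 26.7% and 24.6%.

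DDIT4, a target whose product holds back MTOR complex 1, had the largest average fall of the named targets. It had 15.5 ± 0.350 CPM with torkinib against 366 ± 17.6 CPM untreated in SKBR3, and 6.56 ± 0.906 CPM with torkinib against 19.7 ± 0.257 CPM untreated in 94T778 (SD, n = 2 each), and it was called lower in all 5 lines (average -3.07, SE 0.06, edgeR adjusted p = 1.76e-32). PLOD1 and PLOD2, which hydroxylate lysines of collagen, were lower in all 5 lines as well, with averages of -0.998 and -1.45. The transcriptional repressor BHLHE40 (-2.05) and the lactate dehydrogenase subunit LDHA (-1.28) were lower in 4 lines but not in A375. There BHLHE40 had 40.5 ± 4.28 CPM with torkinib and 39.7 ± 2.98 CPM untreated (SD, n = 2 each), and LDHA rose by 0.67. The glycolytic kinase PGK1 was called lower in 94T778, SKMEL28 and AU565, with -0.17 in A375 and -0.15 in SKBR3.

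Of 19 regulators, 8 (42.1%) were called higher and 8 (42.1%) lower on the average (median 0.04), shares near the 34.5% and 34.0% of all genes. EGLN1, which encodes PHD2, the main oxygen sensor, rose in 4 lines, for example to 156 ± 11.1 CPM in torkinib SKMEL28 against 85.8 ± 5.90 CPM untreated (SD, n = 2 each), and had -0.11 in 94T778; its paralog EGLN3 fell in SKMEL28, SKBR3 and AU565, where EGLN1 rose. TCEB1, TCEB2 and RBX1, subunits of the VHL ubiquitin ligase, had averages of -0.71, -0.58 and -0.87, and TCEB1 was lower in all 5 lines. Of the other parts of that ligase, named after their values were seen, VHL had an average of 0.04 (adjusted p = 0.518) and was called in 94T778 alone, higher by 0.25, while the scaffold CUL2 had an average of -0.32 and was called lower in every line but SKBR3 (0.17, adjusted p = 0.188). GNB2L1 (RACK1), which promotes the oxygen-independent loss of HIF1A, rose by 0.61 on average and was called higher in 4 lines. Its change ran between 0.13 in 94T778 and 1.42 in SKMEL28. CITED2, which competes with HIF for its coactivators, rose in 94T778, SKMEL28 and AU565.

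**Figure D4:**
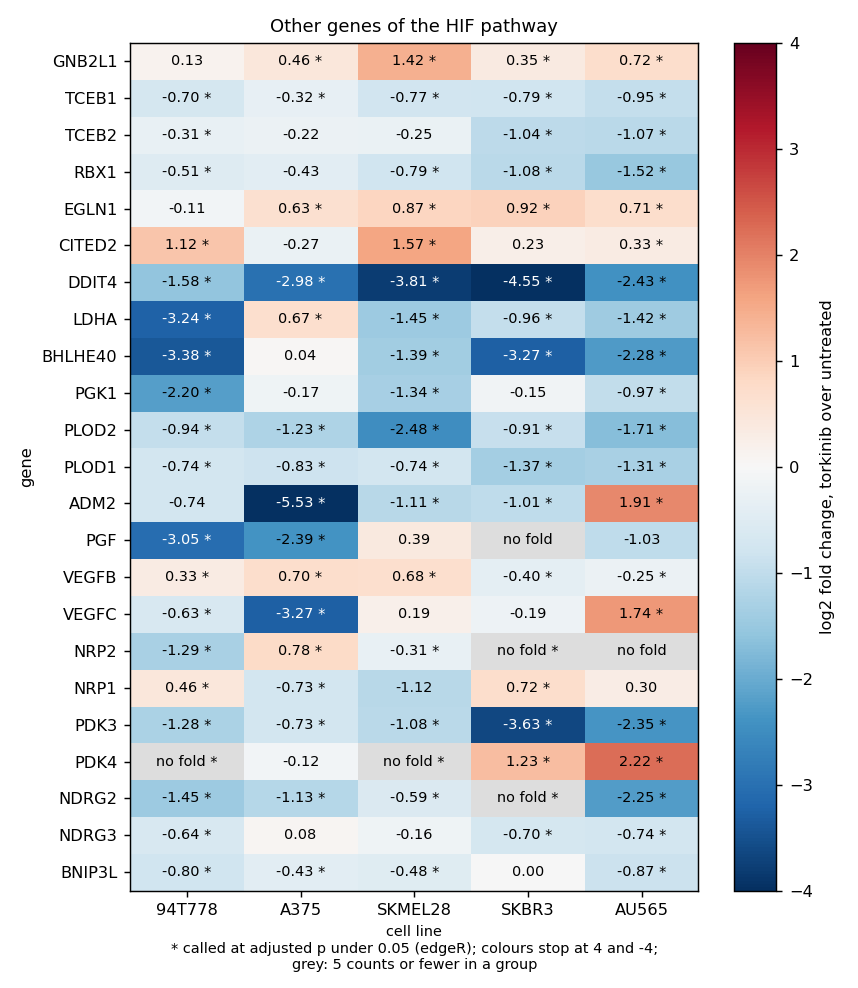
Log2 fold change, torkinib over untreated, of the named genes of the 4 pathway lists (rows) in each cell line (columns), with red for higher and blue for lower, a star for an edgeR adjusted p under 0.05 and grey where a group had 5 counts or fewer. DDIT4, PLOD1, PLOD2, TCEB1 and PDK3 are blue and starred in all 5 lines, and EGLN1 is red and starred in 4.

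The PDK family split. PDK3 was lower in all 5 lines like PDK1 (average -1.81, SE 0.11, edgeR adjusted p = 3.43e-17), while PDK4, known as a target of FOXO factors and of fasting signals, was higher in 4. PDK4 had 77 counts with torkinib against 1 count untreated in 94T778, and 52 counts with torkinib against 2 untreated in SKMEL28. It had 32.01 ± 3.69 CPM with torkinib against 13.5 ± 3.27 CPM untreated in SKBR3 (SD, n = 2 each), a rise of 1.23, and it rose by 2.22 in AU565. In A375 it had 24.99 ± 4.31 CPM with torkinib and 26.7 ± 0.469 CPM untreated (SD, n = 2 each). BNIP3L, the paralog of BNIP3, was lower in 4 lines and stood at 9.89 ± 0.222 CPM with torkinib and 9.82 ± 1.67 CPM untreated in SKBR3 (SD, n = 2 each). NDRG2 was lower in all 5 lines and NDRG3 in 3, whereas NDRG1 was lower in 2 and higher in 1.

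In the VEGF and adrenomedullin system 3 of 6 genes with counts everywhere were lower on the average and 1 was higher, where 34.0% of all genes were lower and 34.5% higher, and 6 genes are too few to set against that. VEGFC, the growth factor of lymph vessels, followed VEGFA in AU565, where it rose by 1.74, and in A375, where it fell to 2.37 ± 0.962 CPM with torkinib against 24.02 ± 1.32 CPM untreated (SD, n = 2 each). In 94T778 it fell by 0.63 while VEGFA rose. ADM2, a relative of ADM, went the other way from ADM in A375, with 0.668 ± 0.348 CPM with torkinib against 33.4 ± 1.28 CPM untreated (SD, n = 2 each), and rose by 1.91 in AU565. VEGFB rose in 94T778, A375 and SKMEL28 and fell in SKBR3 and AU565. PGF, a placental relative of VEGFA, fell in 94T778 and A375, and the receptors NRP1 and NRP2 went different ways by line. NRP1 rose in 94T778 (0.46) and SKBR3 (0.72) and fell in A375 (-0.73), and NRP2 rose in A375 (0.78) and fell in 94T778 (-1.29), SKMEL28 (-0.31) and SKBR3, where it had 1 count with torkinib against 11 untreated. Their averages were not called (-0.08, adjusted p = 0.69, and -0.56, adjusted p = 0.176); that of NRP2 lay between -1.08 and 0.57 with 1 library left out and was called without untreated SKBR3 replicate 1 (-0.73, adjusted p = 0.0424). Without A375 the averages of ADM2, VEGFB and VEGFC were -0.23, 0.10 and 0.28, and none was called (adjusted p of 0.103, 0.102 and 0.141).

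As a description of which genes followed a member across the 10 group means, Pearson's r of log2 CPM was highest for GNB4 (0.97) and TP53BP1 (0.96) with HIF1A, for ARHGEF17 and PGM5 (both 0.98) with EPAS1, and for MKNK2 (0.92) and MTMR11 (0.90) with VEGFA. KRT86 (0.97) and RPL36AL (0.96) were nearest to NDRG1, and PRPS1 and VTA1 (both 0.90) to BNIP3. These are the highest of 10369 genes with a mean of at least 10 CPM, over points that share cell lines, and no other member was among them.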

How the data were processed

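Total RNA of 20 libraries was sequenced. The authors deposited raw read counts by gene symbol, 1 file for each library. The submitters' processing notes name hg19 (GRCh37), limma 3.34.9, HTSeq 0.6.1 and HISAT2 2.04 without saying what each did. Which annotation was used, and whether counting used strand, is not given in the sources used here. Overlapping or antisense genes therefore cannot be told apart by their reads. The 5 summary rows of the counter name no gene, held 37.6 to 52.2% of reads per library and stayed out of library sizes and tests. The tests used edgeR 4.0.16 in R 4.3.3 (TMM factors, filterByExpr, 10 group means in 1 quasi-likelihood model, common biological coefficient of variation 0.0547), with Benjamini-Hochberg adjustment over all 16698 genes tested. Levels are TMM-normalised CPM, and 95% intervals are from the same fit. The average and the tests between lines leave out genes without counts in a group they use. Alternatives were RLE and upper quartile factors, no filter, DESeq2 1.42.0, limma-voom 3.58.1, a replicate block, fits of 1 line, and each library left out. The code was tested on simulated data.

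The members and lists were chosen with earlier results of these data known. Named genes were all members; of each other list the 6 with the smallest p on the average; and for HIF1A, EPAS1, VEGFA, NDRG1 and BNIP3 the 2 genes with the highest correlation over group means. HILPDA was not matched (its older symbol C7orf68 was). NDRG2, PGF, NRP2 and PDK4 had 5 counts or fewer in some groups. The rule for the 94T778 genes in A375 libraries (at least 50 CPM in both untreated 94T778 libraries, at most 0.5 CPM in SKMEL28, SKBR3 and AU565) and the fit without A375 were chosen after the data were seen.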

Additional observations from a re-analysis of the deposited data

Results flagged for a closer look

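The change with torkinib differed between the 5 lines for 8 members, by edgeR's joint test with Benjamini-Hochberg adjustment. The adjusted p was 3.23e-19 for VEGFA, 4.44e-19 for BNIP3, 1.45e-14 for NDRG1, 1.22e-13 for HIF1A, 7.26e-13 for EPAS1, 7.81e-11 for ADM, 8.16e-07 for PDK1 and 0.0423 for ARNT; that of ARNT was lost in 15 of 20 fits with 1 library left out. Lines and doses differ together in that test.

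Among the lines with the same dose, the difference in log2 fold change between AU565 and A375 was 2.74 for VEGFA, 2.52 for EPAS1, -1.36 for ADM and -0.33 for NDRG1. Between AU565 and SKMEL28 it was 2.24 for VEGFA, 1.29 for ADM, 1.28 for BNIP3, 0.81 for PDK1, 0.35 for EPAS1, -0.57 for HIF1A and -1.38 for NDRG1. Between SKMEL28 and A375 it was 2.17 for EPAS1, 1.05 for NDRG1, 0.50 for VEGFA, 0.42 for HIF1A, -0.64 for PDK1, -1.47 for BNIP3 and -2.65 for ADM. Each of these had an edgeR adjusted p under 0.05. Opposite calls stood behind 3 of these genes: VEGFA was higher in AU565 and lower in both melanoma lines, ADM was higher in A375 and lower in SKMEL28, and NDRG1 was higher in SKMEL28 and lower in AU565. The EPAS1 differences with A375 rest on 8 and 7 counts in the torkinib A375 libraries.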

How the results depend on the processing

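Counts of called members moved little. Those of 94T778 and A375 include CA9, which had to differ in 94T778 and lost its call in A375 without any 1 of the 4 libraries there. With each library left out in turn, the number called ranged over 6 to 8 in 94T778, 5 to 6 in A375, 8 to 9 in SKMEL28, 7 to 9 in SKBR3 and 5 in AU565, beside 7, 6, 8, 8 and 5 with all libraries; under the other settings it stayed within 1. Fold changes of single genes, p-values of CA9 and counts of called genes were recomputed under the other settings. Of these 768 values, 753 were marked the same, 9 lost a call, 3 gained one and 3 reversed. A tested value was the same if it kept its side of the threshold, and a change of sign was a reversal only with a call. So a sign could change without a call, as for EPAS1 in AU565 (-0.11, and up to 0.009 under other settings). A count was the same if it moved by at most a set ratio. The 3 reversals were averages computed without A375: 0.077 for EPAS1, 0.12 for VEGFA and 0.28 for VEGFC. With upper quartile factors ARNT was called higher on the average (0.14, edgeR adjusted p = 0.00596) and in SKMEL28 (0.26, adjusted p = 0.035), and in A375 53.4% of called genes were higher, against 43.3% with TMM. The difference of EPAS1 between AU565 and SKMEL28, called at an adjusted p of 0.0494, lost its call with DESeq2, limma-voom, no filter and most left-out libraries. That of VEGFA between SKMEL28 and A375 lost it without SKMEL28 untreated replicate 2 (0.43, adjusted p = 0.0804) or torkinib replicate 2 (0.44, adjusted p = 0.0731). Replicate numbers pair nothing in the labels, and same-numbered libraries did not deviate together (correlations of -0.06 to 0.07 over genes); with a replicate block the members called were 7, 6, 8, 8 and 5 in the same order of lines. Depth limits CA9 outside 94T778 and EGLN3 in A375.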
